A study of Mus musculus with 7 samples.

Results

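Collagens are the structural proteins of the extracellular matrix, each built from 3 alpha chains wound into a triple helix. The 44 collagen genes described here are every gene of the table whose symbol reads Col, a number, a and a number, among 32285 genes in all, and every one of the 44 had at least 20 transcripts in the cells kept (26 for the gene with fewest, Col6a4). The rule used the symbol alone and no measured value, though it was set with earlier results of these data known. They were read across the cell types of 1 single-cell RNA-seq library of trigeminal ganglion cells from the wild type, taken at postnatal day 3.5 (droplet capture with unique molecular identifiers, UMIs, each counting 1 captured transcript). The trigeminal ganglion is the sensory ganglion of the face and teeth, and it holds neurons, satellite glia, Schwann cells and the connective tissue around them. No source used here gives the number of animals behind the library. The 6 molar RNA libraries of the study, 3 control and 3 Gli1-CreER;Fgfr2fl/fl, all after TMX induction at postnatal day 7.5, were not analysed here.

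Fibrillar collagens (types I, II, III, V, XI, XXIV and XXVII) assemble into the cable-like fibrils of bone, cartilage and loose connective tissue. Type IV chains form the sheet of basement membranes under endothelium and around each Schwann cell and satellite glial cell. Type VI makes beaded filaments in the matrix near cells. Types IX, XII, XIV, XVI, XIX, XX and XXII sit on fibrils or at tissue borders (the FACITs, fibril-associated collagens with interrupted helices). Types VIII and X make short-chain networks, XV and XVIII are multiplexins of basement membrane zones, and XIII, XVII, XXIII and XXV cross the plasma membrane.

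Of 13065 barcodes, 9427 were kept (at least 1000 UMIs, 500 genes and at most 20% mitochondrial UMIs). The kept cells held 138357779 UMIs, with a median of 10861 UMIs and 3651 genes a cell. Cells were clustered without any collagen gene and named from marker genes. Names such as osteoblast-like or neuron-like rest on these markers, and the ending is left off hereafter. Of 30 clusters, 24 with 8281 cells were named, and 1146 cells in 6 clusters (median 2514 UMIs) were left out. Of the named cells, 47 peripheral glia led by Npy raised all 7 satellite glia markers against all cells but 2 of 7 among the glia, and were given none of the 12 class names. They count among all other named cells in each ratio, but ranges over classes leave them out, and their values are given where they lay above the second class. All 10 neuron markers, all 9 endothelial, all 10 mural (pericyte and smooth muscle) and all 7 satellite glia markers were raised in the class of that name, and 9 of 10 connective markers. In the Schwann lineage the mature myelinating markers were raised, but of the immature markers Cdh2, Gap43 and Gfra3 were not. A doublet caller marked 2 cells, so doublets are in effect still present. With 1 library there is no test between conditions or cell types. Levels are CPM, the UMIs of a gene scaled to a common total per class, and the interval after a value is the exact 95% Poisson or binomial interval, which covers counting error only.

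Collagen transcripts made up 1.29% of all UMIs kept, and the share differed widely between classes. It was 8.56% in the 293 skeletal cells and 3.41% in the 1634 connective cells. Mural cells (0.758%), the Schwann lineage (0.736%) and endothelium (0.559%) held less, followed by satellite glia (0.409%) and central oligodendrocyte lineage cells (0.251%). The 454 neurons were lowest at 0.0880%. Per cell, the mean was 1834 collagen UMIs in skeletal cells, 502 in connective cells, 77.3 in the Schwann lineage and 66.0 in neurons. Erythroid cells, which should make no collagen, held 0.116% or 14.6 UMIs a cell at a median depth of 10022 UMIs, against 10350.5 in the Schwann lineage, 14036.5 in connective cells, 21368 in skeletal cells and 85267 in neurons. The erythroid value is read as the level of free collagen RNA in the library, and neurons held a smaller share of collagen than erythroid cells did.

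A collagen gene was called higher in a class where its CPM was at least 2-fold that of all other named cells, with at least 20 UMIs over both sides and an interval off 1. Connective cells were higher for 31 of 44 collagen genes, against 16.3% of all genes tested, a background share given after each count below. Skeletal cells were higher for 14 of 44 (all genes 6.45%). The other classes had few: 8 in satellite glia (all genes 7.74%), 5 in endothelium (all genes 10.9%), 5 in the Schwann lineage (all genes 8.53%) and 3 in mural cells (all genes 7.84%). The Schwann genes were Col4a1, Col5a3, Col19a1, Col27a1 and Col28a1. The Col4a1 ratio fell from 2.06 to 0.93 when each other class weighed the same. The endothelial, Schwann and mural counts lie near the share of all genes called. The Schwann count was 0 when UMIs were counted per cell and not as CPM, and the mural count was 8 under 2 of the other clusterings. Central astrocytes had 2 (all genes 10%) and the oligodendrocyte lineage 1 (all genes 8.7%). None was called in macrophages (all genes 11.2%), neutrophils or monocytes (all genes 7.6%) or erythroid cells (all genes 4.16%). Of the 44 genes, those at least 2-fold lower numbered 3 in connective cells (all genes 21%), 21 in skeletal cells (all genes 27.9%), 19 in mural cells (all genes 11.5%), 28 in endothelium (all genes 17.1%), 24 in the Schwann lineage (all genes 34.2%) and 22 in satellite glia (all genes 19.7%). In the classes from the central nervous system and blood they numbered 34 in the oligodendrocyte lineage (all genes 20.9%), 29 in central astrocytes (all genes 13%), 39 in macrophages (all genes 25.5%), 35 in neutrophils or monocytes (all genes 26.7%) and 42 in erythroid cells (all genes 64.5%). The median collagen gene stood at a log2 ratio of 1.52 in connective cells, where the median gene of the table stood at -0.06; in neurons these medians were -3.51 and -0.20.

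**Figure D1:**
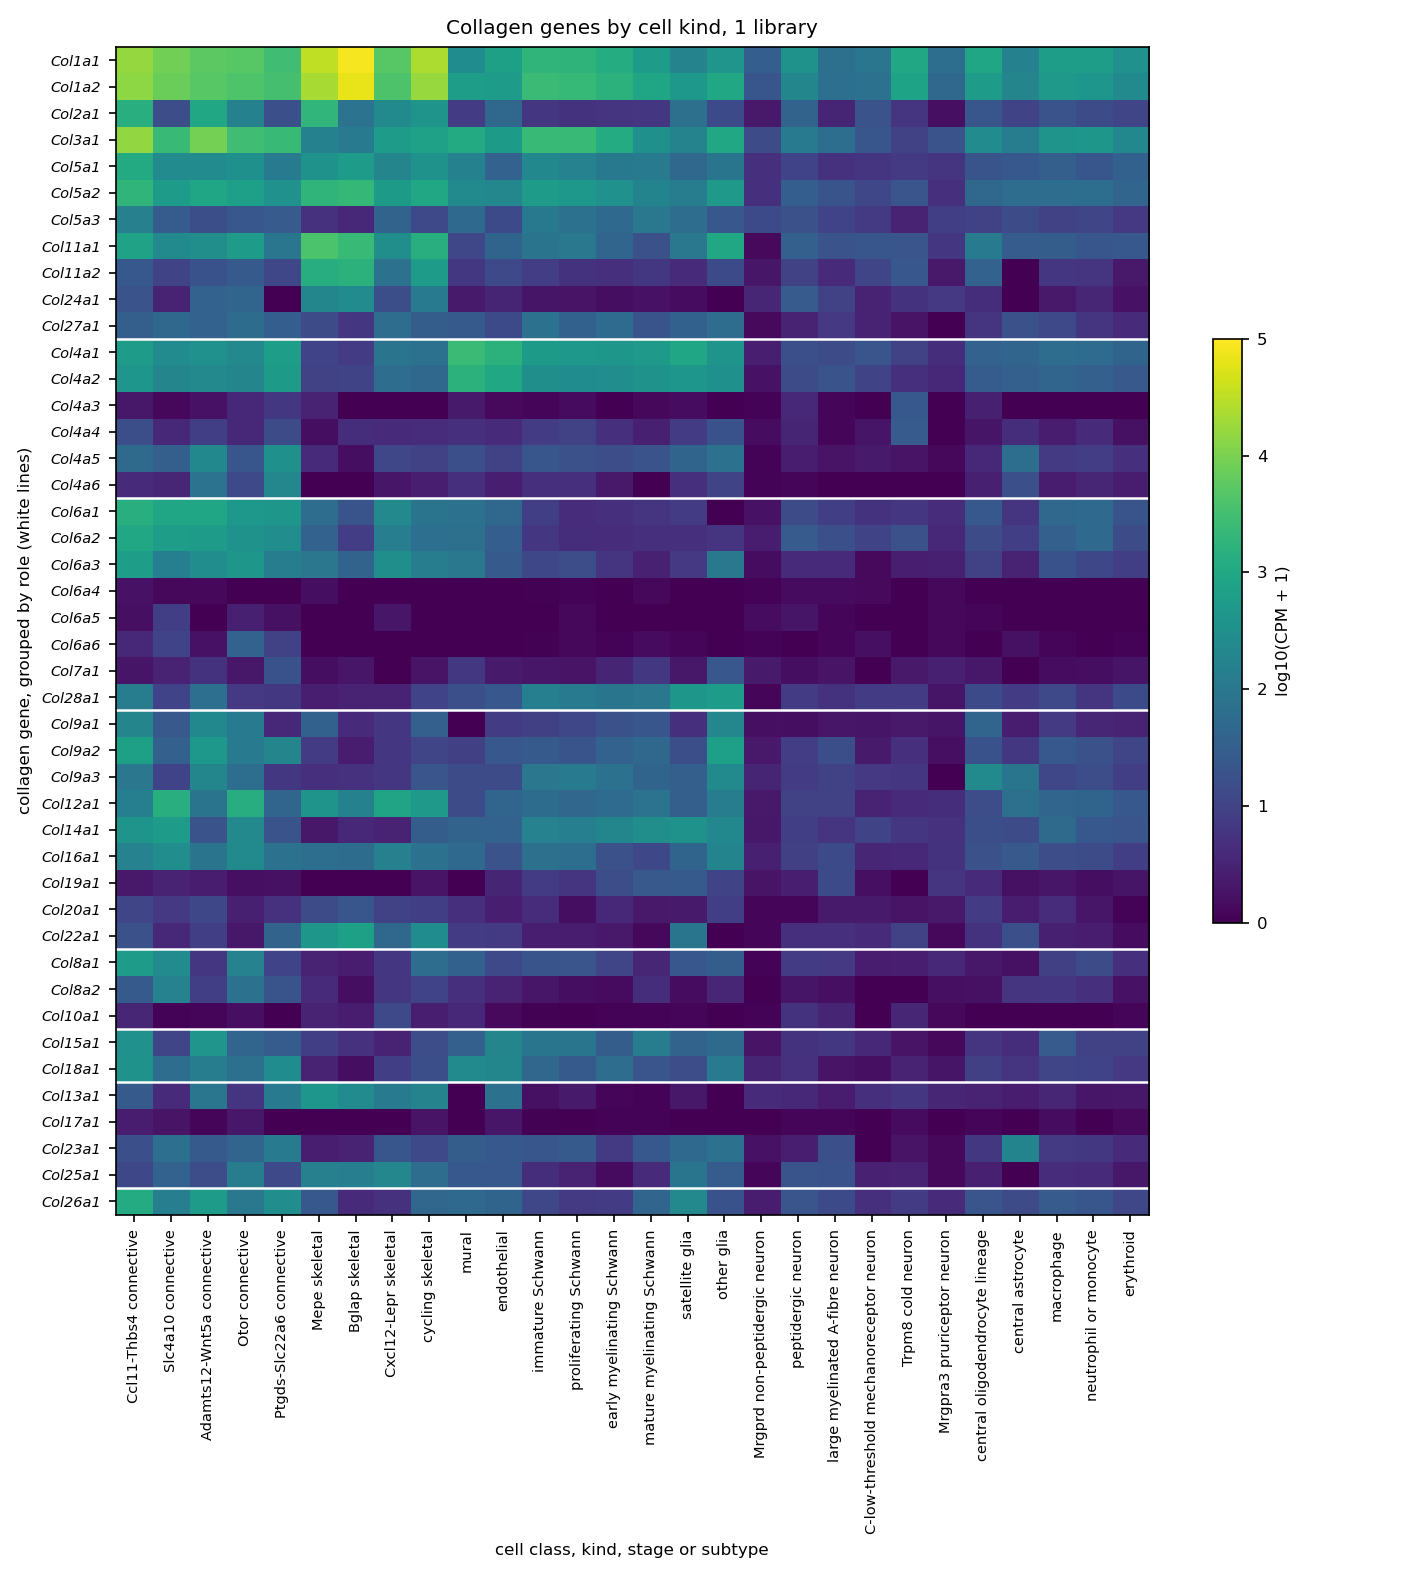
Level of each of the 44 collagen genes (rows, grouped by the kind of chain) in each cell class and kind (columns), as log10(CPM + 1). The fibrillar rows are brightest in the skeletal and connective columns, the Col4a1 and Col4a2 rows in the mural and endothelial columns, and the neuron columns are dark in nearly every row.

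Type I collagen, the main fibril of bone, is made of Col1a1 and Col1a2 chains. Col1a1 stood at 44039 CPM (43875 to 44204) in skeletal cells and 9281 CPM (9243 to 9320.1) in connective cells. The Schwann lineage was next at 1428 CPM (1416 to 1440.3), and the other 9 classes spanned 156 to 909.9 CPM, with erythroid cells at 343. Several classes thus lay within a few-fold of the free-RNA level for this gene. Col1a2 followed the same order at the top, with 33037 CPM (32895 to 33179.7) in skeletal, 8255 CPM (8218 to 8291) in connective and 1915 CPM (1901 to 1929.5) in Schwann cells and 192 to 647 CPM in the rest. Across 28 cell kinds the log2 levels of the pair had a Pearson r of 0.978, a description only, since all kinds share 1 library.

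The 2 type I chains were not in the same proportion everywhere. The ratio of Col1a1 to Col1a2 UMIs was 1.51 (1.49 to 1.53) in Mepe skeletal cells, 1.26 (1.25 to 1.26) in Bglap skeletal cells and 1.12 (1.11 to 1.13) in Ccl11-Thbs4 connective cells. It was below 1 in the glia, at 0.745 (0.733 to 0.758) in immature Schwann cells, 0.635 (0.612 to 0.660) in mature myelinating Schwann cells and 0.372 (0.342 to 0.404) in satellite glia, and also in mural cells at 0.418 (0.353 to 0.493). Erythroid cells, which read the free RNA, had 1.40 (1.32 to 1.47). The glial and mural ratios therefore lay on the other side of 1 from the erythroid ratio, and their intervals did not overlap it. These intervals cover counting error only and not the uneven spread of UMIs over erythroid cells.

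Type III collagen (Col3a1), the fibril of soft connective tissue, had another order. It stood at 7972 CPM (7937 to 8008) in connective cells, 1702 CPM (1688 to 1715) in the Schwann lineage and 1154 CPM (1078 to 1233) in mural cells, with 97.4 to 525 CPM in the other 9 classes. Skeletal cells were at 517 CPM (499.8 to 536), 4.14-fold (3.998 to 4.29) below all other named cells. The ratio of Col1a1 to Col3a1 UMIs was 1.02 (1.01 to 1.03) in Ccl11-Thbs4 connective cells, 3.48 (3.43 to 3.54) in Slc4a10 connective cells and 739.6 (649.9 to 845) in Bglap skeletal cells. Col3a1 stood at 116.5 CPM in Bglap cells, below the 216 CPM of erythroid cells, so the size of this ratio depends on free RNA. Types I and III were still more unequal in Bglap cells than in these connective kinds.

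Type V collagen nucleates and limits type I fibrils. Col5a2 stood at 1559 CPM (1529 to 1591) in skeletal and 1004 CPM (992 to 1017) in connective cells, and Col5a1 at 494 CPM (485 to 503) in connective and 399 CPM (383 to 415) in skeletal cells, with r = 0.966 between the chains over the 28 kinds. Col5a3 differed from both by class: it was highest in the Schwann lineage at 83.1 CPM (80.2 to 86.2), ahead of satellite glia at 58.9 CPM (52.1 to 66.4) and connective cells at 56.5 CPM (53.5 to 59.6), and stood at 10.8 CPM in skeletal cells. By kind, Ccl11-Thbs4 connective cells were highest for Col5a3 at 147 CPM, above immature Schwann cells at 105 CPM. Among members with at least 100 UMIs, the one most like Col5a3 was Col4a1 (r = 0.748), not a fibrillar chain.

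The cartilage-type fibrillar chains were highest in skeletal cells, and Col2a1 and Col11a1 were called higher in connective cells too. Col11a1 stood at 2252 CPM (2215 to 2289) in skeletal cells, 5.33-fold (5.19 to 5.46) the connective level of 423 CPM, and spanned 10.7 to 107 CPM in the other 10 classes, while the Npy glia held 944 CPM (852 to 1043). Col11a2 stood at 1049 CPM (1024 to 1075) in skeletal cells, 29.2-fold (25.0 to 34.3) the oligodendrocyte lineage at 36.0 CPM, and at 16.6 CPM in connective cells, with 0 to 11.8 CPM elsewhere. The XI chains thus parted in connective cells, where Col11a1 kept a high level and Col11a2 did not. Col2a1, the main cartilage fibril chain, reached 741 CPM (719.9 to 763) in skeletal and 649 CPM (639 to 659) in connective cells, against 4.85 to 70.5 CPM elsewhere, the highest of these in satellite glia. Of 9 chondrocyte markers (Acan, Sox9, Hapln1 and Comp among them) 4 were raised in the skeletal class, no cluster met the chondrocyte rule, and Matn1 held 0.159 CPM there.

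Col24a1, a fibrillar chain of developing bone, stood at 165 CPM (155 to 175) in skeletal cells, 8.76-fold (7.83 to 9.80) connective cells (18.8 CPM), then neurons at 8.11 and 0 to 3.51 CPM elsewhere. Col27a1 was highest in the Schwann lineage at 50.4 CPM (48.1 to 52.7), 3.08-fold (2.87 to 3.29) all other named cells, with connective cells at 39.6 CPM (37.1 to 42.2) and satellite glia at 35.3 CPM (30.04 to 41.2). The Npy glia held 61.1 CPM (39.6 to 90.2).

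The 6 type IV genes lie in 3 head-to-head pairs, each pair sharing the stretch between its starts. Col4a1 (chr8:11198423-11312826, GRCm38, minus strand) and Col4a2 (chr8:11312805-11449287, plus strand) have annotated starts that overlap by 22 bases. Col4a3 and Col4a4 start 71 bases apart on chromosome 1, and Col4a5 and Col4a6 start 1308 bases apart on chromosome X. The promoter windows of Col4a1, Col4a2 and Col4a4 (RefSeq, GRCm38.p6, 250 bases before to 50 after the start, 5′ to 3′ on the gene's strand) are shown because these pairs gave the most unlike patterns of the family. Capitals mark CCAAT and GGGCGG on either strand, and these 2 motifs did not overlap each other in these windows.
Col4a1 (chr8:11312777-11313076, minus strand): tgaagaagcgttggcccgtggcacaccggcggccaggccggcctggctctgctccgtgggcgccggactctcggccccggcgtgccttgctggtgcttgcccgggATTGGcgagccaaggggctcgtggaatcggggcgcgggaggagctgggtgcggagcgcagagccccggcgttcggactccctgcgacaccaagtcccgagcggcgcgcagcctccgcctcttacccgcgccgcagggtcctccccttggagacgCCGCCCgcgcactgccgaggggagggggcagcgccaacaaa
Col4a2 (chr8:11312555-11312854, plus strand): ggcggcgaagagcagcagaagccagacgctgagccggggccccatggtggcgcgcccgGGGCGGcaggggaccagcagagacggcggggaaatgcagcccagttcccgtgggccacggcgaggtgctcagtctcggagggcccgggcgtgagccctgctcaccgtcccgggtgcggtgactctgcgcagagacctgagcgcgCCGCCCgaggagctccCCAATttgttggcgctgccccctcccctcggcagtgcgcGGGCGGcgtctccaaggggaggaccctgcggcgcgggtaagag
Col4a4 (chr1:82586800-82587099, minus strand): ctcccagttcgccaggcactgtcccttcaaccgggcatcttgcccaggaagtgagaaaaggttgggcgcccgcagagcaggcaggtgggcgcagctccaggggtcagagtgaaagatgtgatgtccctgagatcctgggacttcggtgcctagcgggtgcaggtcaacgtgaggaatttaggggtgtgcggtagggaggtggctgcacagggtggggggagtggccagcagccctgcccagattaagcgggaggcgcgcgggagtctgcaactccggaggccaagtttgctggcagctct
The Col4a1 and Col4a2 windows share 78 bases. Col4a1 held 1 CCAAT and 1 GGGCGG, Col4a2 held 1 and 3, and Col4a4 held neither. Of 32851 windows of this length, 37.4% held CCAAT and 35.7% held GGGCGG; of the 35 collagen genes with a window, 13 held CCAAT and 22 held GGGCGG. A match is a description of letters and no evidence of binding.

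Col4a1 and Col4a2, the chains of nearly every basement membrane, were highest in the vessel wall. Col4a1 stood at 2542 CPM (2429 to 2658) in mural cells and 1638 CPM (1592 to 1685) in endothelium, then 876 CPM (849 to 904) in satellite glia, 483 CPM (476 to 490.5) in the Schwann lineage and 391 CPM (383 to 399) in connective cells. The other 7 classes spanned 18.2 to 61.0 CPM, with skeletal cells at 38.2 and erythroid cells at 40.5. The value of skeletal cells, the richest in collagen as a whole, averages unlike kinds. Bglap and Mepe cells held 6.58 and 8.96 CPM, below erythroid cells. Cxcl12-Lepr and cycling skeletal cells held 82.3 and 75.8 CPM, above them. Col4a2 had the same first 3 classes: 1619.8 CPM (1530.0 to 1713) in mural cells, 986 CPM (950.2 to 1022) in endothelium and 426 CPM (408 to 446) in satellite glia, with 300.4 CPM in the Schwann lineage, 282 in connective cells and 11.9 to 42.6 elsewhere. Over 28 kinds r was 0.991, the closest of the partner pairs. The ratio of Col4a1 to Col4a2 UMIs was 0.693 (0.492 to 0.972) in large myelinated A-fibre neurons, from 61 and 88 UMIs, and 1.19 (1.02 to 1.38) in Otor cells. Both A-fibre levels, 12.7 and 18.3 CPM, lay below the erythroid levels of 40.5 and 24.3 CPM. In vessel wall and myelinating or satellite glia it went from 1.34 (1.28 to 1.41) in mature myelinating Schwann cells through 1.57 (1.46 to 1.69) in mural cells and 1.66 (1.59 to 1.74) in endothelium to 2.05 (1.95 to 2.17) in satellite glia.

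**Figure D2:**
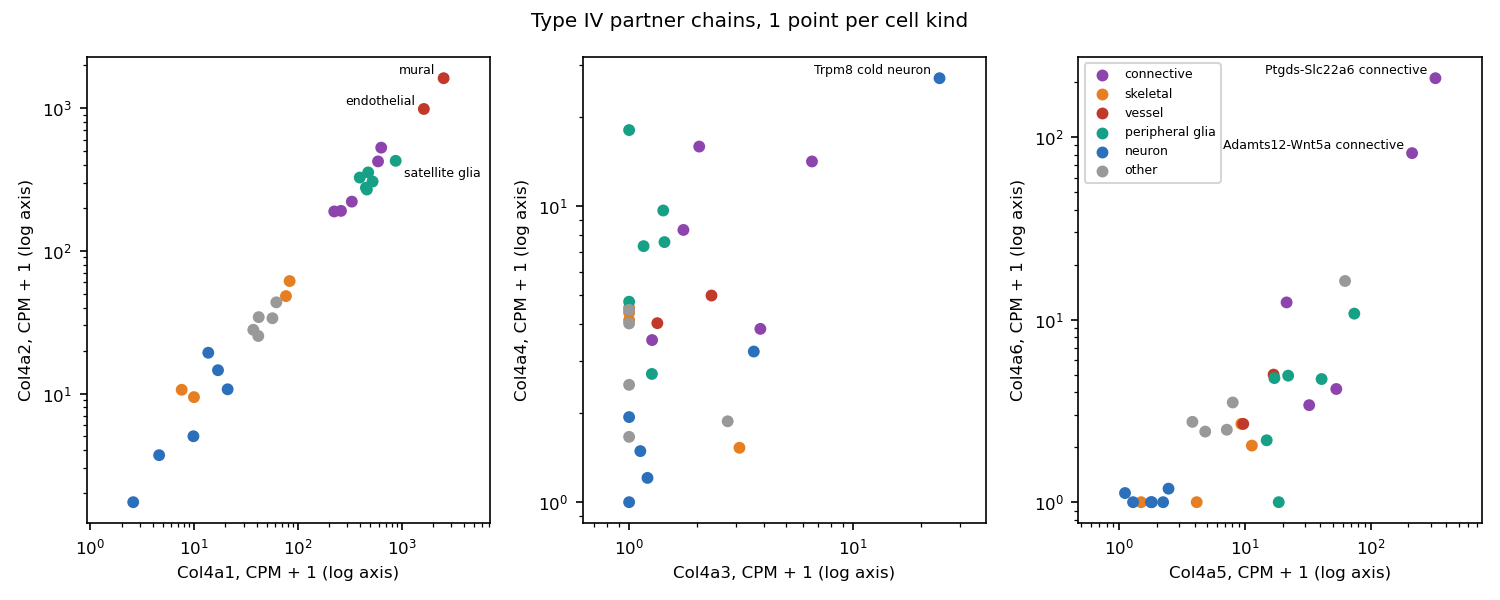
Each point is a cell kind, coloured by lineage, with CPM + 1 of 1 chain of a type IV pair against that of its partner on log axes. The Col4a1 and Col4a2 points lie close to 1 line (r = 0.991), the Col4a5 and Col4a6 points less so (r = 0.875), and the Col4a3 and Col4a4 points scatter (r = 0.435) with the Trpm8 neurons apart at the top right.

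Col4a5 and Col4a6, chains of smooth muscle and epithelial basement membranes, were connective and astrocytic. Col4a5 stood at 105 CPM (101 to 109) in connective cells and 61.8 CPM (49.6 to 76.0) in central astrocytes, then 39.9 CPM (34.3 to 46.1) in satellite glia, with 73.4 CPM (49.5 to 105) in the Npy glia. Within connective cells it ran from 20.5 CPM in Otor cells to 327 CPM (298 to 358) in Ptgds-Slc22a6 cells. Col4a6 was narrower, with 209 CPM (186 to 234) in Ptgds-Slc22a6 cells, 80.6 CPM (73.9 to 87.7) in Adamts12-Wnt5a cells and 15.3 CPM (9.57 to 23.1) in astrocytes; by class it was 37.4 CPM (35.0 to 40.0) in connective cells and 0.264 to 3.996 CPM in the 10 classes other than these and astrocytes. The ratio of Col4a5 to Col4a6 UMIs was 1.56 (1.35 to 1.81) in Ptgds-Slc22a6 cells, 2.64 (2.39 to 2.92) in Adamts12-Wnt5a cells and 16.6 (10.7 to 27.1) in Ccl11-Thbs4 cells. Mature myelinating Schwann cells held 134 UMIs of Col4a5 and 0 of Col4a6. The partner chains of this pair were thus in unequal proportion from kind to kind. Col4a3 and Col4a4, the glomerular chains, were sparse (129 and 578 UMIs in all kept cells) and are described with the neurons; Col4a4 reached 7.95 CPM (6.87 to 9.16) in connective cells, its highest class, while Col4a3 was highest in neurons at 2.20 CPM (1.73 to 2.76).

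Type VI collagen marked connective cells. Col6a1 stood at 983 CPM (970.2 to 995) in connective cells, 11.0-fold (10.1 to 11.9) skeletal cells (89.7 CPM), and 4.86 to 74.6 CPM in the other 10 classes. Col6a2 stood at 661 CPM (651 to 671), 9.54-fold (7.27 to 12.8) mural cells (69.3 CPM), and 3.94 to 59.1 CPM elsewhere. Col6a3, the longest chain, reached 339 CPM (331 to 346) in connective cells, 124 CPM (116 to 133) in skeletal cells and 97.2 CPM (76.2 to 122) in mural cells, with 2.08 to 24.9 CPM in the rest. In the Schwann lineage the 3 chains stood at 5.10, 4.03 and 8.11 CPM, where erythroid cells held 19.1, 13.6 and 7.29. Schwann cells were therefore below the erythroid level for Col6a1 and Col6a2 and near it for Col6a3, while they lay well above it for types I, III and IV.

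The 3 chains did not keep 1 proportion: r with Col6a1 was 0.963 for Col6a2 and 0.804 for Col6a3. The ratio of Col6a1 to Col6a3 UMIs was 6.18 (5.79 to 6.60) in Slc4a10 cells, 2.30 (2.22 to 2.38) in Ccl11-Thbs4 cells, 1.02 (0.927 to 1.13) in Otor cells and 0.707 (0.590 to 0.845) in Cxcl12-Lepr skeletal cells. The other chains able to stand in for Col6a3 were rare and restricted. Col6a6 was highest in Otor connective cells at 36.5 CPM (28.1 to 46.7) and had 165 of its 187 UMIs in connective cells; the other 11 classes spanned 0 to 0.694 CPM. Col6a5 was highest in Slc4a10 cells at 7.60 CPM (5.75 to 9.84), with 2.71 CPM in connective cells and 0 to 0.441 CPM in other classes. Col6a4 held 26 UMIs in all, highest in connective cells at 0.375 CPM (0.171 to 0.711).

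Of the other chains with beaded or von Willebrand type domains, Col28a1 was glial. It stood at 439 CPM (420.3 to 459) in satellite glia, 3.90-fold (3.70 to 4.12) the Schwann lineage at 113 CPM (109 to 116), then 58.0 CPM in connective cells and 4.30 to 21.5 CPM in the other 9 classes. The Npy glia held 550.1 CPM (481 to 627). Col28a1 is a known component of peripheral nerve matrix. Col7a1, the anchoring fibril chain, was sparse (247 UMIs), with 22.01 CPM (10.1 to 41.8) in these Npy glia, 17.4 CPM (11.2 to 25.6) in Ptgds-Slc22a6 cells and 5.33 CPM (1.45 to 13.6), from 4 UMIs, in mural cells, its highest named class.

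Type IX collagen decorates type II and XI fibrils and has 3 chains. Col9a2 stood at 354 CPM (347 to 362) in connective cells, 11.3-fold (10.6 to 12.1) the Schwann lineage (31.3 CPM), and 5.55 to 22.4 CPM in the other 10 classes; the Npy glia were above connective cells at 650.4 CPM (575 to 733). Col9a1 stood at 126 CPM (122 to 131) in connective cells and 41.9 CPM (36.1 to 48.3) in the oligodendrocyte lineage, with 0 to 21.2 CPM in the other classes and 205 CPM (164 to 254) in the Npy glia. Col9a3 had a different order: it was highest in the central oligodendrocyte lineage at 242 CPM (228 to 257), 2.75-fold (2.28 to 3.33) central astrocytes (88.1 CPM), with 87.8 CPM in connective cells, 83.2 in the Schwann lineage and 5.55 to 32.2 CPM in the other classes. The Npy glia held 232 CPM (188 to 284), an interval that overlaps that of the oligodendrocyte lineage. It was the only collagen gene called higher in the oligodendrocyte lineage. The ratio of Col9a3 to Col9a2 UMIs was 0.136 (0.125 to 0.147) in Ccl11-Thbs4 cells, 14.2 (11.2 to 18.04) in the oligodendrocyte lineage and 15.9 (7.82 to 37.6) in astrocytes. The astrocyte Col9a2 level of 5.55 CPM lay below the 10.1 CPM of erythroid cells. Col9a3 overlaps Tcfl5 on the opposite strand, and no source used here says whether counting used the strand; Tcfl5 stood at 5.48 CPM in the oligodendrocyte lineage.

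Types XII and XIV bind fibril surfaces in tendon, fascia and nerve. Col12a1 was highest in connective cells at 603 CPM (593 to 612), with skeletal cells at 405 CPM (389.9 to 422), and within connective cells it was 1409 CPM (1383 to 1437) in Slc4a10 and 1319.7 CPM (1266 to 1375) in Otor cells against 145 CPM in Ccl11-Thbs4 cells. Col14a1 was highest in satellite glia at 361 CPM (344 to 379), ahead of connective cells at 308 CPM (301 to 315) and the Schwann lineage at 195 CPM (191 to 199.9), and stood at 8.12 CPM in skeletal cells. By kind both were highest in Slc4a10 cells, where Col14a1 stood at 571 CPM. By class these related FACITs differed in skeletal cells and in satellite glia, where Col12a1 stood at 31.1 CPM.

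Col16a1 stood at 179 CPM (173 to 184) in connective cells, 2.28-fold (2.08 to 2.51) skeletal cells (78.2 CPM), and 6.38 to 50.6 CPM in the other classes, with 176 CPM (138 to 222) in the Npy glia. Col22a1, known from tissue junctions, was skeletal at 415 CPM (399 to 431), 4.78-fold (4.30 to 5.32) satellite glia, where it still reached 86.8 CPM (78.4 to 95.7), with 0.442 to 15.96 CPM in the other 10 classes. Col19a1 was glial: 25.2 CPM (20.8 to 30.2) in satellite glia, 2.14-fold (1.73 to 2.64) the Schwann lineage at 11.8 CPM (10.7 to 12.9), and 0 to 3.44 CPM elsewhere. Col20a1 was highest in skeletal cells at 13.9 CPM (11.1 to 17.1), ahead of connective cells at 8.08 CPM (6.98 to 9.30).

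Among short-chain networks, Col8a1 and Col8a2, the type VIII chains of vessel and eye matrix, were connective. Col8a1 stood at 244 CPM (238 to 251), 7.05-fold (4.81 to 10.8) mural cells (34.6 CPM), with 0.694 to 21.9 CPM elsewhere, and Col8a2 at 67.0 CPM (63.8 to 70.4) against 0.438 to 5.23 CPM in the 11 other classes. Their kinds differed: Col8a1 was highest in Ccl11-Thbs4 cells at 546 CPM (528 to 564) and Col8a2 in Slc4a10 cells at 164 CPM (155 to 174). Col10a1, the hypertrophic cartilage chain, held 121 UMIs in all and was highest in skeletal cells at 3.19 CPM (1.95 to 4.92).

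The multiplexins were vascular and connective. Col18a1, the source of endostatin, stood at 250.4 CPM (216 to 289) in mural cells, 194 CPM (178 to 210.0) in endothelium and 178 CPM (173 to 183) in connective cells; the mural and endothelial intervals did not overlap. Col15a1 stood at 212 CPM (206 to 218) in connective cells and 189.8 CPM (174 to 206) in endothelium, with mural cells at 33.3 CPM (21.6 to 49.2). The 2 genes thus differed in mural cells, where Col18a1 was high and Col15a1 was not. The member most like Col18a1 over 28 kinds was Col4a2 (r = 0.893), and Col4a2 was also the one most like Col15a1 (r = 0.836).

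The transmembrane chains had 3 different leading classes, 1 of them resting on 3 UMIs. Col13a1 stood at 263 CPM (251 to 276) in skeletal cells, 3.46-fold (3.01 to 3.99) endothelium at 76.1 CPM (66.5 to 86.7), with 40.3 CPM in connective cells and 0 to 3.35 CPM elsewhere. Col23a1 stood at 176 CPM (155 to 199) in central astrocytes, 3.45-fold (2.88 to 4.14) satellite glia at 51.0 CPM (44.7 to 58.0), with 41.6 CPM in connective cells and 2.98 to 29.3 CPM in the other classes, and 73.4 CPM (49.5 to 105) in the Npy glia. Col25a1, cleaved to a soluble form that binds amyloid and known from motor axon growth, stood at 138 CPM (129 to 148) in skeletal cells and 85.2 CPM (77.0 to 94.1) in satellite glia, against 2.30 CPM in the Schwann lineage. Col17a1, the hemidesmosome chain, was sparse, by class at most 1.01 CPM (0.208 to 2.95) in endothelium, from 3 UMIs. That interval covers the 0.75 CPM of connective cells, the class where Col17a1 was called higher. By kind it reached 1.36 CPM in Ccl11-Thbs4 connective cells. Col26a1, which fits none of these groups, stood at 567 CPM (557 to 576) in connective cells, 2.47-fold (2.32 to 2.63) satellite glia at 229.6 CPM (216 to 244), with 10.7 to 49.3 CPM in the other 10 classes.

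Within the connective cells, 5 kinds, each named after genes high in it, differed in their collagens. The 368 Ccl11-Thbs4 cells were the richest, with 6.01% of UMIs in collagen and 17 of 41 tested collagen genes higher than in the other connective cells (all genes 3.36%). These included Col1a1, Col1a2, Col3a1, Col5a1, Col5a2 and Col5a3, and also Col26a1 at 1211 CPM (1185 to 1238), 3.77-fold (3.65 to 3.91) above the other connective cells, and Col9a2 at 699.7 CPM (679.7 to 720.1), 3.15-fold (3.02 to 3.29) above. Their Col3a1 level of 15777 CPM (15682 to 15873) compared with 8925 CPM (8853 to 8997) in Adamts12-Wnt5a, 2866 CPM (2787 to 2946) in Otor, 2500.3 CPM (2465 to 2536) in Slc4a10 and 2338 CPM (2259.8 to 2418) in Ptgds-Slc22a6 cells. Types I, III and V thus all had their highest connective level in 1 kind. Mature myelinating Schwann markers, as a sum, stood at 697 CPM in this kind and 424 in the other connective cells, with 1 of 10 called higher; the part of this in the result was not tested.

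The 533 Slc4a10 cells had 6 called higher (all genes 9.29%): Col6a5, Col8a2, Col12a1, Col14a1, Col16a1 and Col23a1. At a finer clustering (resolution 2) the ratios of Col6a5 (0.83), Col14a1 (0.74) and Col16a1 (0.81) turned. Their Col14a1 stood at 571 CPM (554 to 589) and their Col8a2 at 164 CPM (155 to 174), 7.24-fold (6.45 to 8.15) above the other connective cells. The 512 Adamts12-Wnt5a cells had 7 (all genes 4.86%): Col4a5, Col4a6, Col9a1, Col9a3, Col13a1, Col15a1 and Col24a1, with Col15a1 at 396 CPM (381 to 411). The 132 Otor cells had 4 (all genes 5.76%): Col6a6, Col12a1, Col24a1 and Col25a1, the last at 126 CPM (110.1 to 144), 6.07-fold (5.14 to 7.14) above. The 89 Ptgds-Slc22a6 cells had the lowest collagen share at 1.31% and 7 called higher (all genes 5.41%): Col4a3, Col4a5, Col4a6, Col7a1, Col13a1, Col22a1 and Col23a1. Their calls hold 3 type IV chains and 2 transmembrane chains. No chain of types I, III or V was called higher in any connective kind but Ccl11-Thbs4.

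Within the skeletal cells, all 10 osteoblast markers were raised, and 4 sub-clusters were compared. The 88 Bglap cells, named for the osteoblast hormone gene Bglap, which came after Cpz, Adarb2, Serpinf1 and Col1a2 among their leading genes, held 16.3% of their UMIs in collagen. Col1a1 stood at 86163 CPM (85754 to 86574) there, at 33558 CPM (33298 to 33820.1) in Mepe cells, 24121 CPM (23842 to 24402) in cycling cells and 5126 CPM (4984 to 5272) in Cxcl12-Lepr cells. Col1a2 had the same order, with 68617 CPM (68252 to 68984), 22195 CPM (21983 to 22408), 16547 CPM (16317 to 16780.2) and 4039 CPM (3913 to 4168). Bglap cells were higher than the other skeletal cells for 5 of 35 tested members (all genes 1.68%): Col1a1, Col1a2, Col11a2, Col22a1 and Col24a1. Col22a1 stood at 682 CPM (646 to 719), 2.33-fold (2.16 to 2.52) above, and Col24a1 at 254 CPM (232 to 277), 2.05-fold (1.81 to 2.32) above.

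The 96 Mepe cells, named for a bone matrix gene of late osteoblasts and osteocytes, were higher for 4 (all genes 1.71%): Col2a1, Col9a1, Col11a1 and Col13a1. Col2a1 stood at 1913 CPM (1852 to 1977) against 78.5 CPM in Bglap cells, and Col11a1 at 3760.2 CPM (3673 to 3848) against 2414. Col11a2, the partner of Col11a1, was instead called higher in Bglap cells, at 1668 CPM (1611 to 1726) against 1284 CPM in Mepe cells. Osteoblast markers were at high levels in both (summed 40019 CPM in Mepe and 34562 CPM in Bglap cells). The 64 Cxcl12-Lepr cells, named for genes known from marrow stroma, had 1.34% collagen and 12 called higher (all genes 11.8%), among them Col4a1, Col4a2, Col5a3, Col6a1, Col6a2 and Col6a3. Col6a3 stood at 313 CPM (278 to 350.0) and Col6a1 at 221 CPM (192 to 253), against 37.5 and 19.2 CPM in Bglap cells. Col10a1 was also highest there, at 11.5 CPM (5.72 to 20.5), from 11 UMIs. As a class, skeletal cells were lower than all other named cells for 21 of 44 members (all genes 27.9%), among them Col3a1, Col4a1, Col4a2, Col6a1, Col6a2, Col14a1 and Col18a1.

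**Figure D3:**
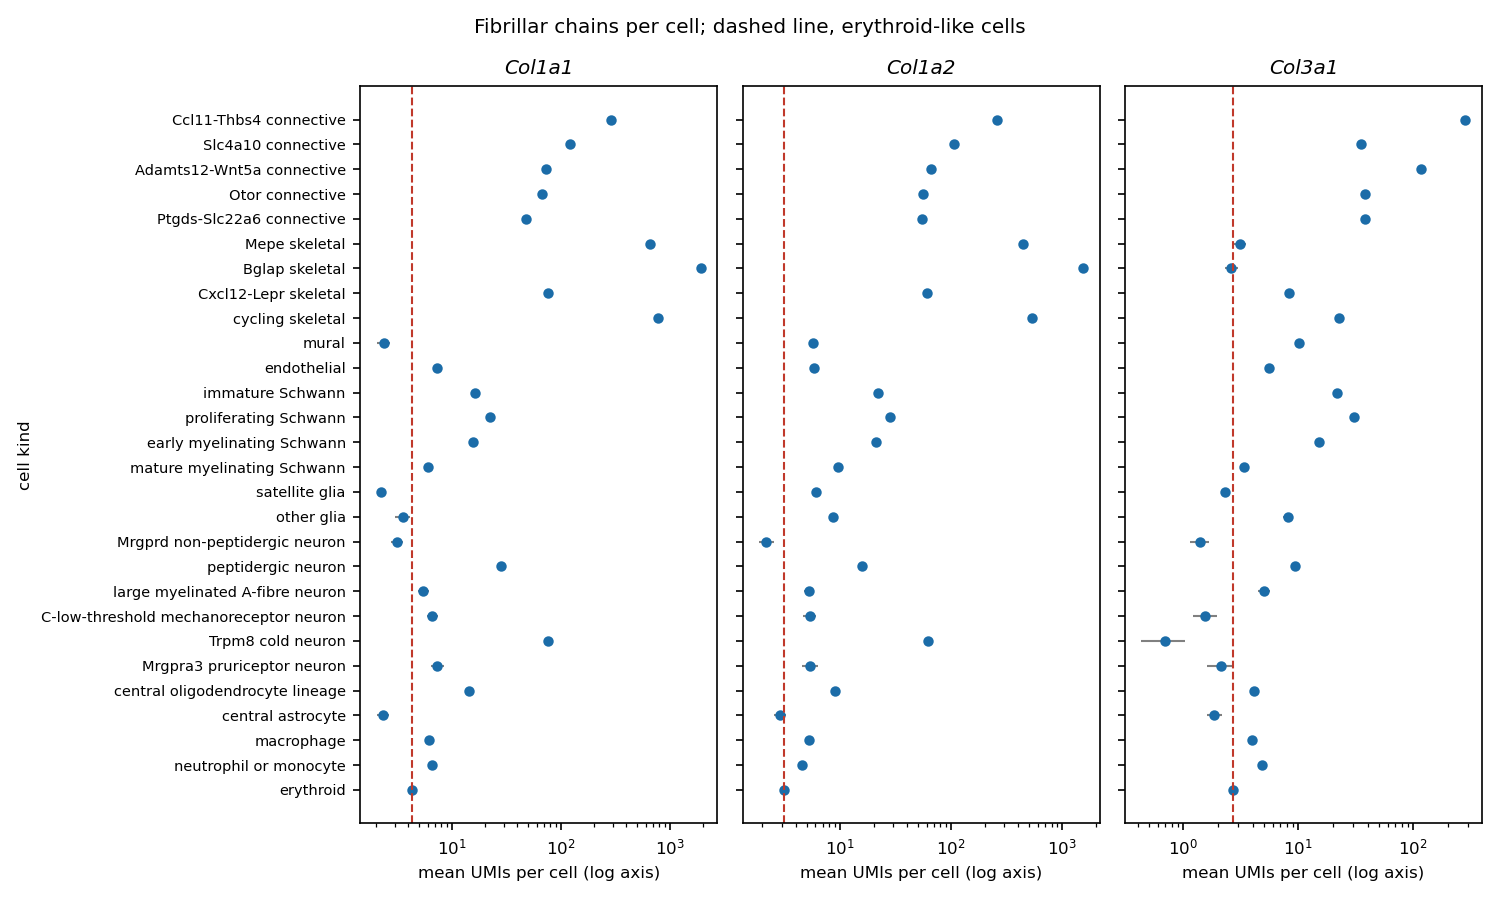
Mean UMIs per cell of Col1a1, Col1a2 and Col3a1 (log axes) in each cell kind, with exact Poisson intervals as bars and the erythroid level as a dashed line. Bglap cells stand highest for Col1a1 and Col1a2 but lie on the erythroid line for Col3a1, and the Trpm8 mean of 76.7 Col1a1 UMIs a cell is set by 1 cell.

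Schwann cells lay a basement membrane before they myelinate, and collagens of the fibrils around them are made by both Schwann cells and fibroblasts of the nerve. The lineage was split into 1439 immature, 568 proliferating, 733 early myelinating and 732 mature myelinating cells. Against the other glia, mature cells raised 10 of 10 mature markers and immature cells 3 of 9 immature markers. Proliferating cells were named by cell cycle genes and raised 1 of 9 immature markers. Early myelinating cells raised 0 of 10 mature markers, their best list, and were named by early markers against all cells. The immature and early names are thus less firm than the mature one. In the order immature, proliferating, early and mature, the collagen shares were 0.958%, 0.879%, 0.604% and 0.397%. Col3a1 stood at 2499 CPM (2471 to 2527), 2438 CPM (2402 to 2474), 1189 CPM (1167 to 1211) and 327 CPM (314 to 340.1) in that order, with erythroid cells at 216. The median cell held 20, 29, 13 and 1 Col3a1 UMIs, and the median erythroid cell 0. The level in mature cells was thus 6.31-fold (6.06 to 6.57) below that of the other Schwann cells and near the free-RNA level.

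Cells were thinned to 5000 UMIs, and shallower cells were left out. These were 296 of 1439 immature, 94 of 568 proliferating, 73 of 733 early myelinating, 216 of 732 mature and 88 of 716 erythroid cells. The share of the remaining cells with a Col3a1 UMI was 98.0% (97.0 to 98.7) in immature, 99.2% (97.9 to 99.8) in proliferating, 89.4% (86.8 to 91.6) in early myelinating and 57.9% (53.6 to 62.2) in mature cells, and 27.2% (23.8 to 30.9) in erythroid cells. Without thinning, and over all cells of each kind, these shares were 97.5% (96.6 to 98.2), 97.0% (95.3 to 98.2), 92.6% (90.5 to 94.4), 64.9% (61.3 to 68.4) and 41.1% (37.4 to 44.8), at median depths of 8904, 12943.5, 12817, 9784.5 and 10022 UMIs. Col3a1 was therefore in nearly every immature and proliferating cell, not in a few. The sum of 10 connective markers was 49.4 CPM in the Schwann lineage and 2421 CPM in all other named cells, and 0 of the 10 was called higher. Those other cells include the connective class that the markers named, so a lower sum was set in advance. It does not measure connective RNA in Schwann cells, and the part of such RNA in the Col3a1 result was not tested.

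Mature cells were lower than the other stages for 15 of 38 tested members (all genes 14.5%). Type I chains were among them: Col1a1 went from 1877 CPM (1853 to 1902) in immature to 588 CPM (571 to 606) in mature cells and Col1a2 from 2519 CPM (2492 to 2547) to 926 CPM (905 to 948). Col16a1 went from 70.1 CPM (65.6 to 74.9) to 11.2 CPM (8.95 to 13.9), with early myelinating cells already at 16.2 CPM (13.7 to 19.0). Col27a1 stood at 74.4 CPM (69.7 to 79.3) and 19.2 CPM (16.2 to 22.6). Col4a1 and Col4a2 were not among them: Col4a1 stood at 524 CPM (511 to 537), 462 CPM (446 to 478), 452 CPM (439 to 466) and 475 CPM (459.8 to 491) over the 4 stages and Col4a2 at 305 CPM (295 to 315), 268 CPM (256 to 280.3), 276 CPM (265 to 287) and 353 CPM (340.1 to 367). Col4a2 was thus at its highest in mature cells while Col1a1, Col1a2 and Col3a1 were at their lowest. Other basement membrane chains were called lower in mature cells: Col4a4, at 6.34 CPM in immature and 1.71 in mature cells, Col4a6, at 3.93 and 0 CPM, and Col18a1. Col5a3 had its lowest level between, at 105 CPM (99.7 to 111), 70.7 CPM (64.7 to 77.2), 49.3 CPM (44.9 to 54.1) and 99.8 CPM (92.8 to 107) over the 4 stages.

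Mature cells were higher for 4 members (all genes 5.5%): Col7a1, Col8a2, Col19a1 and Col26a1. Col19a1 stood at 24.3 CPM (20.9 to 28.0) in mature and 14.0 CPM (11.7 to 16.6) in early myelinating cells against 6.58 CPM (5.23 to 8.17) in immature cells. Col26a1 stood at 42.3 CPM (37.8 to 47.2) against 10.7 CPM (8.94 to 12.6) in immature cells, 5.20-fold (4.38 to 6.18) above the other stages. Immature cells were higher for 4 (all genes 4.27%): Col4a6, Col16a1, Col20a1 and Col25a1. Proliferating cells were higher for 3 (all genes 8.12%): Col4a4, Col6a3 and Col13a1, the highest of them Col6a3 at 13.9 CPM (11.3 to 16.9), and early myelinating cells for 0 (all genes 1.48%). These counts moved with the setting: by UMIs per cell immature cells had 0 and proliferating 7, with each cell weighing the same 8 and 1, and with a minimum of 100 UMIs immature cells had 1 and mature 2. With the erythroid level subtracted, immature cells had 8 and proliferating and mature cells 7 each. Early myelinating cells were still the highest stage for Col18a1, at 59.3 CPM (54.5 to 64.5) against 19.5 CPM (16.5 to 22.9) in mature cells. The ratio of Col9a3 to Col9a2 UMIs moved from 6.22 (5.17 to 7.52) in proliferating to 0.844 (0.721 to 0.988) in mature cells.

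**Figure D4:**
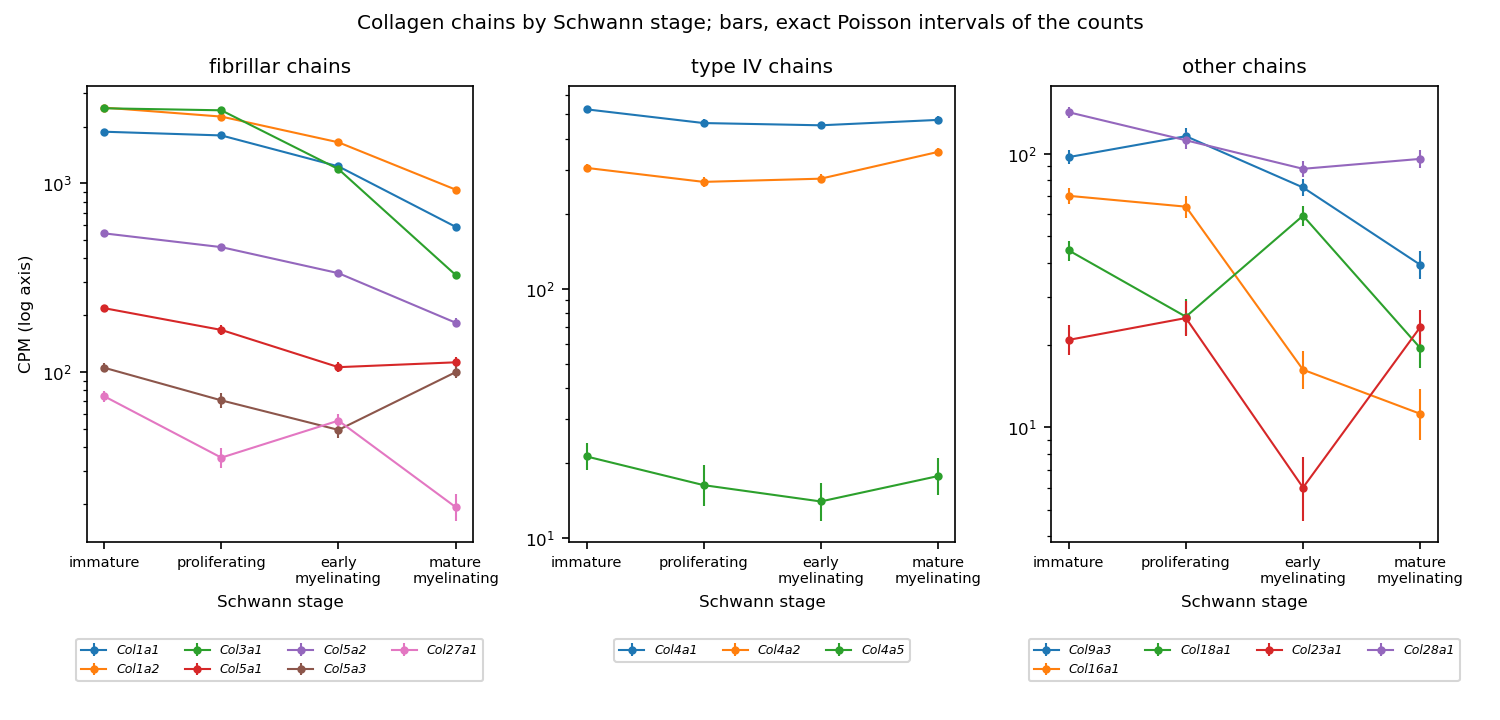
CPM of collagen chains over the 4 Schwann stages on log axes, fibrillar chains on the left, type IV chains in the middle and others on the right, with exact Poisson intervals as bars. Col3a1 drops from 2499 CPM in immature to 327 CPM in mature cells, and Col4a1 stays between 452 and 524 CPM.

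Satellite glia, which wrap neuronal cell bodies, had 8 members called higher than in all other named cells: Col4a1, Col4a2, Col14a1, Col19a1, Col22a1, Col23a1, Col25a1 and Col28a1. Col22a1 was 3.54-fold (3.18 to 3.93) above all other named cells and Col25a1 5.34-fold (4.78 to 5.96). Set against mature myelinating Schwann cells, their glial neighbours, satellite glia had 85.2 against 3.03 CPM of Col25a1, 86.8 against 0.264 of Col22a1, 229.6 against 42.3 of Col26a1 and 439 against 95.7 of Col28a1. Of the fibrillar chains, Col1a1 at 171 CPM (159 to 183) and Col3a1 at 175 CPM (163 to 187) lay below the erythroid level. Others lay above it: Col1a2 stood at 459 against 245 CPM in erythroid cells, Col11a1 at 99.7 against 22.6, Col2a1 at 70.5 against 10.1, Col5a3 at 58.9 against 5.85 and Col27a1 at 35.3 against 3.20.

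Neurons were lower than all other named cells for 35 of 44 collagen genes (all genes 34.2%) and higher for 2 (all genes 20.9%), Col4a3 and Col10a1. By UMIs per cell 8 were higher in neurons, the deepest cells, and 4 with the erythroid level subtracted. Col10a1 held 68 UMIs in neurons, 2.00 CPM (1.55 to 2.53), but it overlaps Nt5dc1 on the opposite strand. Nt5dc1 stood at 5.79 CPM in neurons and 14.5 CPM in connective cells, and without a stated strand of counting, reads of the 2 genes cannot be told apart.

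Col4a3 and Col4a4 stood out in the 32 Trpm8 neurons, which carry the cold-sensing channel. Col4a3 stood at 23.3 CPM (17.7 to 30.1) there, from 58 UMIs, at 2.60 CPM (1.42 to 4.37) in peptidergic neurons and at or below 0.208 CPM in the other 4 named subtypes. Col4a4 stood at 26.1 CPM (20.2 to 33.3), from 65 UMIs, and at or below 2.23 CPM in the other 5. Against the other named neurons these were 36.3-fold (20.6 to 67.6) and 32.5-fold (19.5 to 56.7) higher. Both values were also above every non-neuronal kind, where the highest Col4a3 level was 5.55 CPM (2.40 to 10.9) in Ptgds-Slc22a6 cells and the highest Col4a4 level 17.1 CPM (6.88 to 35.3) in the Npy glia; the Col4a4 intervals of these 2 overlap.

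The 2 chains were found in the same cells. Of 32 Trpm8 neurons, 13 had a Col4a3 UMI, 15 had a Col4a4 UMI and 11 had both. No cell had both in any of the other 5 named subtypes, of 276 cells in all. Of 28 Mrgpra3 neurons none had either. The 2 genes start 71 bases apart on opposite strands. The 10 Col4a3 UMIs of 1 peptidergic cell made up most of the 14 in that subtype, so its level rests on that cell. After thinning to 5000 UMIs, 6.25% (0.766 to 20.8) of Trpm8 neurons had a Col4a3 UMI and 9.38% (1.98 to 25.0) a Col4a4 UMI, shares near that of a single UMI; the median depth of these cells was 77501.5 UMIs. In erythroid cells the unthinned shares were 0% (0 to 0.514) and 0.838% (0.308 to 1.81).

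**Figure D5:**
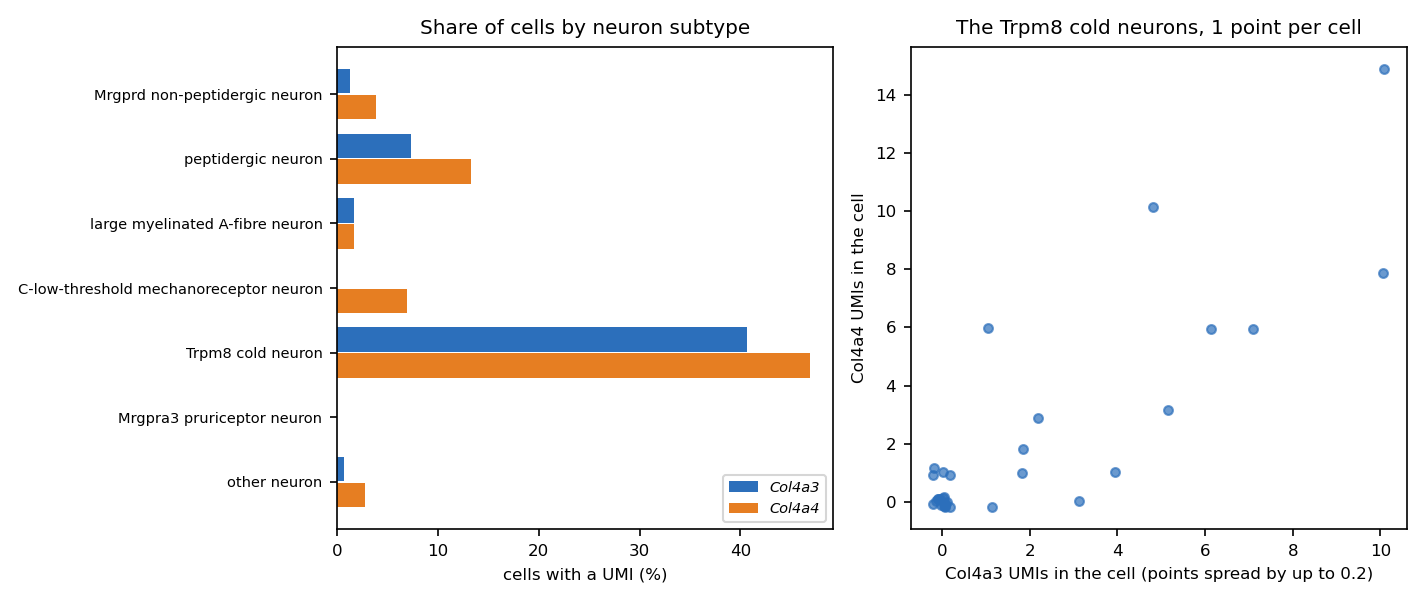
On the left, the share of cells with a Col4a3 or Col4a4 UMI (percent of cells, bars from 0) in each neuron subtype; on the right, UMIs of both genes in each of the 32 Trpm8 neurons, 1 point per cell, spread slightly so that points at the same value can be seen. The Trpm8 bars are the longest, and 11 cells hold both chains, with up to 10 Col4a3 and 15 Col4a4 UMIs in 1 cell.

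Other collagen differences among neuron subtypes rest partly on a few cells. Against the other named neurons, 19 of 37 tested members were higher in peptidergic neurons (all genes 8.41%), 12 in large myelinated A-fibre neurons (all genes 12.6%), 6 in Trpm8 neurons (all genes 5.93%), 2 in C-low-threshold mechanoreceptors (all genes 3.89%) and none in Mrgprd (all genes 3.17%) or Mrgpra3 neurons (all genes 4.19%). Mrgprd neurons were lower for 31 (all genes 18.8%) and had the smallest collagen share, 0.0116% or 12.2 UMIs a cell. In Trpm8 neurons 1 cell held 2287 of the 2453 Col1a1 UMIs. The median Trpm8 neuron held 2 Col1a1 UMIs and the median erythroid cell 1. Without the cell with most collagen in each subtype, Col1a1 and Col1a2 were no longer higher in Trpm8 neurons, and 4 members were: Col4a3, Col4a4, Col11a2 and Col28a1. For the Trpm8 count the share of all genes was then 5.70%. The peptidergic count was 21 (all genes 8.71%) and the A-fibre count 14 (all genes 12.9%). Summed connective markers stood at 42.2 CPM in Trpm8 neurons and 96.0 CPM in the other named neurons, with 1 of 10 higher, and osteoblast markers at 122 and 90.3 CPM, with 2 of 10 higher.

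Markers of connective and bone cells moved with the peptidergic result. Summed connective markers stood at 274 CPM in peptidergic neurons and 46.4 in the other named neurons, with 6 of 10 higher, and summed osteoblast markers at 270.1 and 50.01 CPM, with 5 of 10 higher; their part in the peptidergic counts was not tested. In A-fibre neurons the connective sum was 26.8 against 105 CPM, with 0 of 10 higher. No glial or osteoblast sum is given for A-fibre neurons, and the part of glial RNA in their counts was not tested. There Col19a1 stood at 12.5 CPM (9.53 to 16.1), 8.29-fold (5.36 to 13.0) above the other named neurons, Col23a1 at 15.4 CPM (12.1 to 19.3), 19.3-fold (11.4 to 34.4) above, and Col16a1 at 12.1 CPM (9.16 to 15.6). Col24a1 was highest among neurons in peptidergic cells at 26.0 CPM (21.9 to 30.7), and Col25a1 was 18.6 CPM (15.1 to 22.6) there and 17.5 CPM (13.9 to 21.6) in A-fibre neurons, with at most 2.01 CPM in the other 4 subtypes. Erythroid cells held 0.884, 2.98, 0.773 and 1.10 CPM of Col19a1, Col23a1, Col24a1 and Col25a1. Satellite glia held 25.2, 51.0, 0.438 and 85.2 CPM of the same genes.

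The genes that fold, process, bind and cut collagen were read from lists grouped by role. Of 21 genes that hydroxylate, glycosylate, fold or export procollagen, 13 were higher and 0 lower in connective cells, 12 higher and 1 lower in skeletal cells, and 1 higher and 6 lower in the Schwann lineage. Of all genes, 16.3% were higher and 21% lower in connective cells, 6.45% and 27.9% in skeletal cells and 8.53% and 34.2% in the Schwann lineage. Those higher in connective cells included P3h3 at 197 against 19.5 CPM, 10.1-fold (9.58 to 10.6), Crtap at 109 against 22.3 CPM, 4.89-fold (4.62 to 5.17) and P3h4 at 136 against 38.1 CPM, 3.57-fold (3.41 to 3.74). Creb3l1, a transcription factor that drives type I collagen genes in osteoblasts, stood at 119 against 21.6 CPM, 5.50-fold (5.21 to 5.81). Median log2 ratios of the list were 1.22 in connective and 1.41 in skeletal cells, beside -0.06 and -0.37 for all genes.

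Of 14 genes of procollagen processing and cross-linking, 9 were higher and 2 lower in connective cells and likewise 9 and 2 in skeletal cells, while in the Schwann lineage 1 was higher and 10 lower, where 34.2% of all genes were lower. In connective cells the lysyl oxidase Loxl1 stood at 113 against 4.56 CPM, 24.7-fold (22.4 to 27.3), and its relative Loxl2 at 97.2 against 11.4 CPM, 8.51-fold (7.94 to 9.13). Adamts2, which removes the N-propeptide, stood at 173 against 13.1 CPM, 13.2-fold (12.4 to 14.0). Of 12 collagen receptors with enough UMIs (13 listed), 5 were higher and 4 lower in connective cells, led by Ddr2 at 129 against 9.17 CPM, 14.1-fold (13.1 to 15.1) and Mrc2 at 151 against 12.0 CPM, 12.6-fold (11.8 to 13.4). In mural cells 5 were higher and 3 lower (all genes 7.84% and 11.5%), in satellite glia 5 and 5 (all genes 7.74% and 19.7%), in the Schwann lineage 2 and 5, and in neurons 0 and 10 (all genes 20.9% and 34.2%). The mural 5 include Cspg4, which is also a marker that named the mural class, so its call there is no separate result. The higher pair in Schwann cells was Itga2, a chain of a collagen-binding integrin, and Adgrg6, an adhesion receptor needed for myelination that binds type IV collagen. Of 7 genes of collagen degradation, 4 were higher and 2 lower in connective cells, led by Mmp2 at 241 against 25.8 CPM, 9.34-fold (8.93 to 9.78) and Fap at 103 against 16.6 CPM, 6.17-fold (5.81 to 6.57), and 5 were higher and 1 lower in skeletal cells. In macrophages 2, Mmp9 and Ctsk, were higher and 4 lower (all genes 11.2% and 25.5%). In neutrophils or monocytes 2 were higher and 5 lower (all genes 7.6% and 26.7%), the higher being Mmp9 and the neutrophil collagenase Mmp8, at 264 against 1.16 CPM, 228-fold (189.7 to 275). No collagen gene was called higher in these last classes.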

How the data were processed

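The deposited matrix held whole-number UMI counts per gene and barcode, made by the authors with Cell Ranger 3.1.0 on mm10 per the submitters' processing notes, while the matrix header names Cell Ranger 7.0.1. Whether intronic reads or strand entered the counts is not stated in the labels or headers. All 44 collagen genes and 32158 of 32285 feature IDs were found in the GENCODE annotation of GRCm38, and 35 of 44 had a RefSeq promoter window (GRCm38.p6). The members and all lists were chosen with earlier results of these data known.

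Cells with at least 1000 UMIs, 500 genes and at most 20% mitochondrial UMIs were scaled to 10000 UMIs, log-transformed and clustered on 2000 variable genes without collagens (30 components, 20 neighbours, Leiden resolution 1, seed 0). Clusters were named from marker lists, with connective, skeletal and neuronal kinds split further. UMIs were summed per class. A ratio was called at 2-fold or more (or 0.5 or less), with at least 20 UMIs over both sides and an exact conditional binomial 95% interval off 1. Shares of cells carry Clopper-Pearson intervals, and thinning drew 5000 UMIs a cell and left out shallower cells. The calls were tested on simulated counts, but no outcome is given here and no result rests on that test. No p-value was computed, since 1 library gives no replicate. Likeness is Pearson's r of log2(CPM + 1) over 28 kinds, for members with at least 100 UMIs. Named members are all 44 with their highest class; values in every class, or their range, are given where the highest class was at least 2-fold above the second and for the type I, III, IV and VI chains. Planned comparison of bone with cartilage cells could not be made, as no cluster and 0 gated cells met the chondrocyte rule, and skeletal sub-clusters were compared instead. Alternatives covered filters, clustering, weights, thresholds and free-RNA subtraction; leaving out the neuron of each subtype with most collagen UMIs was chosen after seeing the data. Tools were Python 3.11.15, numpy 2.4.6, scipy 1.17.1, pandas 2.3.3, scanpy 1.11.5, leidenalg 0.10.2, scikit-learn 1.9.0 and matplotlib 3.10.9.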

Additional observations from a re-analysis of the deposited data

How the results depend on the processing

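Of 376 counts of collagen genes recomputed under other settings, 312 stayed within 1.5 times the reported count. Of 2296 ratios of called members, 2028 kept their call, 260 kept their direction only and 8 turned, and the cause of each change was not tested. For most counts at other settings, here and above, no share of all genes at the same setting is given. They are read only against the reported counts, not against all genes. With cells of at least 3000 UMIs and at most 10% mitochondrial, Mepe cells had 2 genes, A-fibre neurons 6 and C-low-threshold mechanoreceptors 0. Without the top 8% of doublet scores, Bglap cells had 3, proliferating Schwann cells 6 and the mechanoreceptors 4. At resolution 0.5 and with all variable genes, mural cells had 8. At resolution 2, proliferating Schwann cells had 6 and the mechanoreceptors 1, and Col6a5 (0.83), Col14a1 (0.74) and Col16a1 (0.81) turned in Slc4a10 cells. With the gate on each cell, the oligodendrocyte lineage had 2 and erythroid cells 1. With each cell weighing the same, the oligodendrocyte lineage had 2, immature Schwann cells 8, proliferating 1, Mrgprd neurons 1 and the mechanoreceptors 4, and Col11a1 turned in peptidergic neurons (0.71). By UMIs per cell, the Schwann lineage had 0, neurons 8, Cxcl12-Lepr cells 6, immature Schwann cells 0, proliferating 7, early myelinating 1, the mechanoreceptors 1 and Mrgpra3 neurons 1. With each other class weighing the same, mural cells had 6, the oligodendrocyte lineage 3, macrophages 1, Mepe cells 7, proliferating Schwann cells 5 and Mrgpra3 neurons 1, and Col4a1 turned in the Schwann lineage (0.93). With the erythroid level subtracted, mural cells had 5, neurons 4, macrophages 1, immature Schwann cells 8, proliferating 7, early myelinating 1, mature 7, the mechanoreceptors 4 and Mrgpra3 neurons 2.

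With a minimum of 100 UMIs, immature Schwann cells had 1, mature 2, A-fibre neurons 6 and Trpm8 neurons 3. At a ratio of 4, the count was 20 in connective cells, 2 in endothelium, 0 in the Schwann lineage and in immature and proliferating cells, 2 in mature, 3 in satellite glia, 1 in astrocytes, 4 in Ccl11-Thbs4, 3 in Slc4a10, 2 in Adamts12-Wnt5a, 2 in Otor and 4 in Ptgds-Slc22a6 cells, 1 in Mepe and in Bglap and 2 in Cxcl12-Lepr cells, 5 in peptidergic, 4 in A-fibre and 0 in mechanoreceptor neurons. Without the neuron of each subtype with most collagen, Mrgprd neurons had 1, and Col15a1 in A-fibre neurons (0.89) and Col1a1 (0.96) and Col1a2 (0.62) in Trpm8 neurons turned.

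Thinned to 2500 UMIs, with shallower cells left out, Col3a1 was found in 96.2% of immature, 96.9% of proliferating, 80.4% of early and 38.6% of mature Schwann cells and 18.2% of erythroid cells. At resolution 0.5 the Otor comparison could not be made, nor the Mrgprd one under the stricter cell filter, nor any kind under the gate on each cell. No paired analysis was possible because a single library was analysed. Subtypes of few cells limit what the depth can show: 0 of 28 Mrgpra3 neurons with either Col4a3 or Col4a4 allows a share of cells with a UMI of up to 10.7%, the limit of 3 counts that a count of 0 allows, and says nothing of cells that express the genes without a captured UMI.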
